A study of Homo sapiens with 8 samples.

Results

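IMR90 cells, human fetal lung fibroblasts of limited lifespan, were compared after 6 days with inflachromene (ICM) and without it, across all genes. ICM is a small molecule that binds the chromatin proteins HMGB1 and HMGB2, and the study used it to bring cells into senescence. The comparison used 4 of the 8 libraries of the series, 2 labelled as 6 days of ICM and 2 labelled as young, which the design text calls low-passage wild-type cells and which are named control here. The labels give neither a dose nor a vehicle. Another 2 libraries, labelled as 3 days of ICM, were used for a further comparison, and 2 with a different ICM label were used only in an alternative fit. All libraries came from factory RNA-Seq, an approach in which RNA from the parts of the nucleus that hold active RNA polymerase is sequenced so that nascent transcripts are enriched. The labels also give poly(A) selection, and the values were read pairs on exons, so they are not a measure of unspliced RNA alone.

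Senescence is a lasting exit from the cell cycle in which p53 and its target p21 (CDKN1A) hold cyclin-dependent kinases inactive, and genes for DNA replication and mitosis are kept off by the RB family and the DREAM complex. Senescent fibroblasts are also known to lose lamin B1, to remodel their matrix and to secrete cytokines, growth factors and proteases, together called the senescence-associated secretory phenotype (SASP). NRF2 is a transcription factor that is freed from KEAP1 when reactive compounds modify the latter, and it then switches on genes for glutathione, thioredoxin and NADPH supply.

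Of 28265 genes in the count tables, 15950 had enough counts to be tested, and 4734 of the other 12315 had no count in any of the 4 libraries. After 6 days 2121 genes were upregulated and 2738 downregulated, which is 13.3% and 17.2% of those tested and 30.5% together. These shares are the background for the counts of all gene lists below. A gene was taken as changed with an absolute log2FC over 0.6, where a log2FC of 1 is a 2-fold difference, and an adjusted p-value (Benjamini-Hochberg) under 0.05 in edgeR's quasi-likelihood test. The median log2FC of all tested genes was −0.0013, a value that TMM normalisation sets near 0, and was 0.04 with library totals as the scaling. More downregulated than upregulated genes had large changes, with 617 below a log2FC of −2 and 273 below −3, against 244 above 2 and 79 above 3. The genes called higher took 9.74% and 9.17% of all counts in the control libraries and 21.3% and 21.1% after 6 days. Those called lower took 25.9% and 26.1% in control and 11.1% in each 6-day library. In all 2121 upregulated genes and in 2736 of the 2738 downregulated ones, the levels of the 2 groups did not overlap, which was also so for 72.6% of all tested genes, called or not.

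The 4 libraries held between 12095123 and 18898154 counted read pairs. Levels are given as CPM, counts scaled to a common library size after TMM normalisation, control replicates 1 and 2 before 6-day replicates 1 and 2. The control libraries differed from each other by a median of 0.197 on the log2 scale and the 6-day libraries by 0.116. Across genes, log2(CPM + 1) correlated with a Pearson's r of 0.989 within the control pair, 0.996 within the 6-day pair and 0.936 to 0.944 between the groups. The differences within each pair exceeded sampling noise, with a chi-square per degree of freedom of 22.7 for the control and 5.44 for the 6-day pair, so neither pair was taken for 1 library deposited again. Nothing in the labels states that replicates came from separate cultures, and the p-values therefore measure only the spread between these libraries (n = 2 per group).

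**Figure D1:**
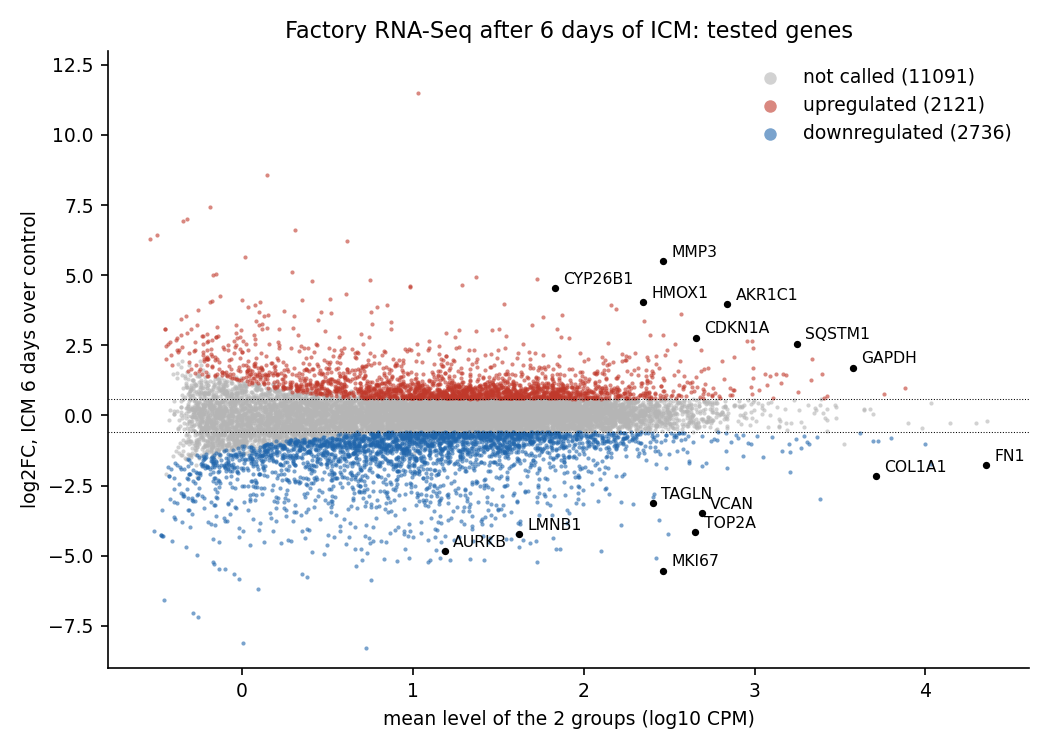
Each point is 1 tested gene, with its mean level in the 2 groups (log10 CPM) on the horizontal axis and its log2FC after 6 days of ICM against control on the vertical axis, coloured by call, with dotted lines at the fold cutoff of 0.6 (2 downregulated genes are not drawn). More genes lie below a log2FC of −3 than above 3, while the upregulated gene SPP1 lies at 11.5.

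Among called genes with at least 20 CPM in the higher group, the 12 with the largest increases included SPP1, the proteases MMP3 and MMP10, and several enzymes that reduce reactive carbonyls. SPP1, which encodes osteopontin, had no count in either control library and 809 counts in the 6-day libraries together, which is at least 208-fold higher against a floor of 3 counts in the control group. MMP3 (stromelysin-1, on chromosome 11 of hg19 from 102706532 to 102714340, with all counts from its exons) had 15.9 and 8.67 CPM in control and 581 and 562 CPM after 6 days (log2FC 5.51, SE 0.23, adjusted p = 7.66e-08 by edgeR's quasi-likelihood test). MMP10, another stromelysin nearby on chromosome 11, went from 2.06 and 0.743 to 37.8 and 36.8 CPM (log2FC 4.64, SE 0.27). CYP26B1, which degrades retinoic acid, had 4.88 and 6.52 CPM in control and 122 and 139 CPM after 6 days (log2FC 4.54, SE 0.17). FER1L6, a ferlin family gene, rose from 1.88 and 0.991 to 48.8 and 41.99 CPM (log2FC 4.92), and 273 of its exon bases overlap an antisense gene that unstranded counting cannot set apart. The other genes among these 12 were KYNU and 6 redox genes (AKR1B10, HMOX1, NMRAL2P, AKR1C1, OSGIN1 and PTGR1). NMRAL2P, a transcribed pseudogene of a redox sensor gene, had 5.35 and 2.39 CPM in control and 61.3 and 66.7 CPM after 6 days, and PTGR1, a reductase of lipid aldehydes and prostaglandins, had 64.8 and 46.6 CPM in control and 683 and 688 CPM after 6 days.

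At the same limit of 20 CPM, the 12 largest decreases consisted of 7 genes of cell division (MKI67, KIF18B, TROAP, CENPF, AURKB, NUF2 and KNL1), 4 histone genes (H1-5, H3C8, H2BC10 and H2AC11) and the noncoding gene CARMN. MKI67, the gene for the proliferation marker Ki-67, lies on chromosome 10 from 129894925 to 129924687 and had 537 and 607 CPM in control and 11.7 and 13.01 CPM after 6 days (log2FC −5.53, SE 0.14, adjusted p = 1.33e-08 by edgeR's quasi-likelihood test). KIF18B, a kinesin of spindle microtubules, went from 53.1 and 47.9 to 1.33 and 1.48 CPM, and TROAP, a spindle-associated protein gene, from 33.9 and 30.1 to 1.22 and 0.579 CPM. CARMN, a cardiac and smooth muscle noncoding RNA whose exons hold the MIR143 hairpin, fell from 36.1 and 48.5 to 1.33 and 1.05 CPM (log2FC −5.14, SE 0.23).

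By the absolute difference in mean CPM, the called genes that fell most were FN1, COL6A3, FLNA and COL1A1, and those that rose most were DST, GAPDH, DYNC1H1 and NID2. FN1 (fibronectin) lost the most, from 37665 and 32379.5 to 9954 and 10471 CPM (log2FC −1.78, SE 0.14). FLNA, the actin crosslinker filamin A, went from 14901 and 11823 to 6291 and 6867 CPM (log2FC −1.02), and MYH9, nonmuscle myosin heavy chain, from 7189.7 and 5679 to 3226 and 3620.0 CPM (log2FC −0.91). DST, the cytoskeletal linker dystonin, gained most, from 5303 and 4967 to 9941 and 10335 CPM (log2FC 0.98, SE 0.12). The glycolytic enzyme gene GAPDH, often used as a reference, had 2037 and 1490.1 CPM in control and 5659 and 5825 CPM after 6 days (log2FC 1.70, SE 0.16), and it has many processed pseudogenes, which makes its count uncertain because multi-mapped reads were left out for all genes. The glycolytic kinase gene PKM had 1512 and 1030.3 CPM in control and 2999 and 3061 CPM after 6 days (log2FC 1.25). NID2, a basement membrane linker, rose from 979.9 and 752 to 3549.6 and 3349 CPM (log2FC 1.99), with 1083 of its exon bases shared with RTRAF on the opposite strand. DYNC1H1, the heavy chain of cytoplasmic dynein, rose from 4514 and 4039 to 6861 and 7528 CPM (log2FC 0.75).

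Genes of the kinetochore, spindle and cytokinesis were downregulated almost without exception. Of 23 tested, 22 fell and none rose, with a median log2FC of −3.90, against 17.2% called lower among all genes. In this bulk RNA fewer dividing cells and less RNA per cell cannot be told apart. CENPF, a kinetochore protein of the G2 and M phases, had 518 and 511 CPM in control and 14.2 and 15.9 CPM after 6 days (log2FC −5.09, SE 0.13). KIF4A, a chromosome-bound kinesin, went from 83.8 and 77.9 to 2.81 and 3.37 CPM (log2FC −4.70). CENPA, the histone variant that marks centromeres, went from 5.76 and 7.35 to 0.212 and 0.421 CPM (log2FC −4.33, SE 0.37). The spindle checkpoint kinases BUB1 and BUB1B had log2FC of −4.47 and −4.55. BUB3 was the exception, with 138 and 127 CPM in control and 117 and 115 CPM after 6 days (log2FC −0.20, SE 0.11, adjusted p = 0.167 by edgeR's quasi-likelihood test), and did not pass the cutoff.

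The kinases, cyclins and transcription factors that drive mitosis all fell, 19 of 19 with a median log2FC of −3.09. AURKB, a kinase of the chromosomal passenger complex, had 33.9 and 25.7 CPM in control and 1.06 and 1.001 CPM after 6 days (log2FC −4.85, SE 0.23). PLK1 (polo-like kinase), which acts from mitotic entry to cytokinesis, went from 48.3 and 44.9 to 2.92 and 3.898 CPM (log2FC −3.77). CCNB1, the mitotic cyclin, went from 95.2 and 96.1 to 11.6 and 10.96 CPM (log2FC −3.09). FOXM1 and MYBL2, transcription factors that activate late cell cycle genes, had log2FC of −2.82 and −3.98. MASTL had the smallest change, −0.67, and was not called without 6-day replicate 2.

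The promoters of mitotic genes are known to carry a cell cycle homology region (CHR, searched as TTTGAA), which the DREAM and MuvB complexes bind, and CCAAT boxes, which NF-Y binds. Both were searched on both strands in the 250 bases before and 50 bases after each gene start in RefSeq's GRCh38.p14 annotation, and a CHR and a CCAAT box can share 1 base where they adjoin. Of the 23 kinetochore and spindle genes, 20 matched a promoter, of which 14 (70.0%) held a CHR, 14 (70.0%) a CCAAT box and 10 (50%) both. Among all 27195 promoters of the table the shares were 15.4%, 35.7% and 6.07%. The 3 promoters shown are of genes that fell and hold both motifs, and each runs over 150 bases on the gene's strand up to the base before the start, with the motifs in capitals. KIF4A lies at chrX:70289954-70290103 on the plus strand, CENPA at chr2:26785906-26786055 on the plus strand and PLK1 at chr16:23678739-23678888 on the plus strand.
KIF4A: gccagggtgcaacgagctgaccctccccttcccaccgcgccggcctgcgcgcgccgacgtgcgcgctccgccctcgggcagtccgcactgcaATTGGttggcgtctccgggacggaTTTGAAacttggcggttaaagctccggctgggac
CENPA: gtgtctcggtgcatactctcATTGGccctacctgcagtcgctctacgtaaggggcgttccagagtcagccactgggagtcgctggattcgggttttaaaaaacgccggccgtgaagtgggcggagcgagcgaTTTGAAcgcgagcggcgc
PLK1: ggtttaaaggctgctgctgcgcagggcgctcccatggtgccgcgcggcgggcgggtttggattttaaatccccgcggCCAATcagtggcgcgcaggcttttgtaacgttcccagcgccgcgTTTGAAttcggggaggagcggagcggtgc
The CHR begins 34 bases before the start in KIF4A, 18 in CENPA and 29 in PLK1, and the CCAAT box 58, 130 and 73 bases before it. In KIF4A and CENPA the CCAAT box is on the other strand and reads ATTGG. Such matches describe letters and do not show that a factor binds there.

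**Figure D2:**
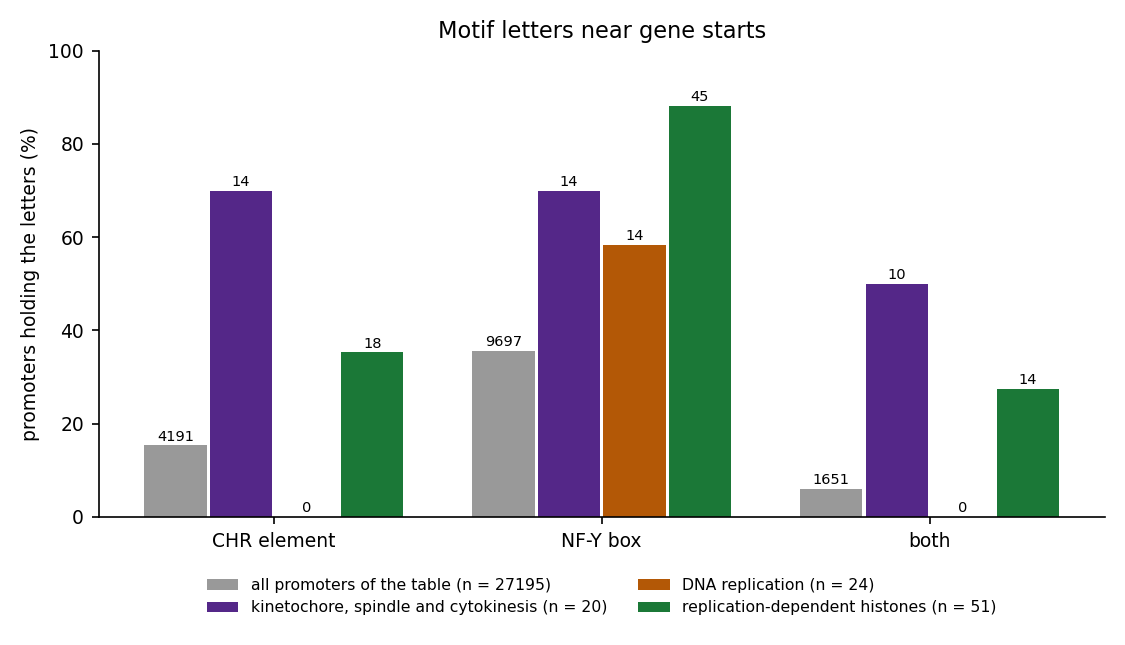
Bars give the percentage of promoters (250 bases before to 50 after the gene start) that hold a CHR, an NF-Y (CCAAT) box or both, for all promoters of the table and for 3 gene groups, with the number of promoters above each bar. A CHR was found in 14 of 20 kinetochore and spindle promoters and in none of 24 DNA replication promoters.

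DNA replication genes fell in 26 of 27 cases, with a median log2FC of −2.17. MCM5, a subunit of the replicative helicase, had 85.2 and 59.6 CPM in control and 8.6002 and 8.903 CPM after 6 days (log2FC −3.05, SE 0.18). MCM10, which helps to activate that helicase, went from 23.7 and 23.7 to 1.65 and 2.11 CPM (log2FC −3.65). POLA1, the catalytic subunit of the polymerase that lays down primers, went from 63.9 and 54.7 to 11.8 and 12.6 CPM (log2FC −2.28). PCNA, the sliding clamp of the replicative polymerases and also a p53 target, was the only member that was not called, with 62.8 and 60.5 CPM in control and 48.8 and 46.3 CPM after 6 days (log2FC −0.38, SE 0.12, adjusted p = 0.0244 by edgeR's quasi-likelihood test). Of 24 replication genes that matched a promoter, none held a CHR and 14 (58.3%) held a CCAAT box. Of 8 genes that supply deoxynucleotides, 5 fell and 1 rose: RRM2, the small subunit of ribonucleotide reductase in S phase, went from 167 and 161 to 19.7 and 22.1 CPM (log2FC −2.97), whereas RRM2B, the p53-induced small subunit, went from 27.8 and 28.2 to 96.7 and 94.2 CPM (log2FC 1.77). Homologous recombination and checkpoint genes fell in 14 of 18 cases (median −2.36), among them BLM, a helicase (log2FC −4.03), FANCD2 of the Fanconi pathway (−3.88) and BRCA2 (−2.86). The checkpoint kinase genes ATM and ATR were not called, with log2FC of 0.46 and 0.26.

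Within the E2F and RB families 6 of 13 genes fell and none rose. E2F2 went from 6.11 and 5.95 to 0.159 and 0.316 CPM (log2FC −4.62), E2F8 from 8.52 and 10.7 to 0.319 and 0.369 CPM (log2FC −4.76) and E2F1 from 10.2 and 8.34 to 2.12 and 2.48 CPM (log2FC −2.01). RBL1, which encodes p107, fell from 49.3 and 51.03 to 9.82 and 11.9 CPM (log2FC −2.21). The list's median was −0.46 and was −0.72 without 6-day replicate 1. The other pocket protein genes did not pass, RB1 with a log2FC of 0.19 (SE 0.12) and RBL2 with −0.26 (SE 0.13).

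Replication-dependent histone genes, which are transcribed in S phase and whose messages normally lack a poly(A) tail, fell in 51 of 56 tested cases, with a median log2FC of −3.27. H1-5, a linker histone, had 108 and 98.3 CPM in control and 2.495 and 3.06 CPM after 6 days (log2FC −5.22, SE 0.16, adjusted p = 2.74e-08 by edgeR's quasi-likelihood test). H3C8 went from 21.4 and 26.3 to 0.584 and 0.685 CPM (log2FC −5.21). H2BC14 had 318 counts in the control libraries together and 1 after 6 days, a 413-fold lower level with a 95% interval of 73.6 to 16362 for counting error. Among the 4 that did not pass was H2BC12, with 60.5 and 49.9 CPM in control and 44.9 and 47.7 CPM after 6 days (log2FC −0.26). Another was H1-2, with 90.8 and 71.8 CPM in control and 70.1 and 82.3 CPM after 6 days (log2FC −0.10). The testis linker histone gene H1-6 was the only one to rise, from 0.588 and 0.3303 to 5.68 and 4.53 CPM (log2FC 3.40). Histone genes resemble each other closely, and reads that fit several were not counted, so low values of single members are uncertain. Of 51 matched histone promoters, 45 (88.2%) held a CCAAT box and 18 (35.3%) a CHR.

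**Figure D3:**
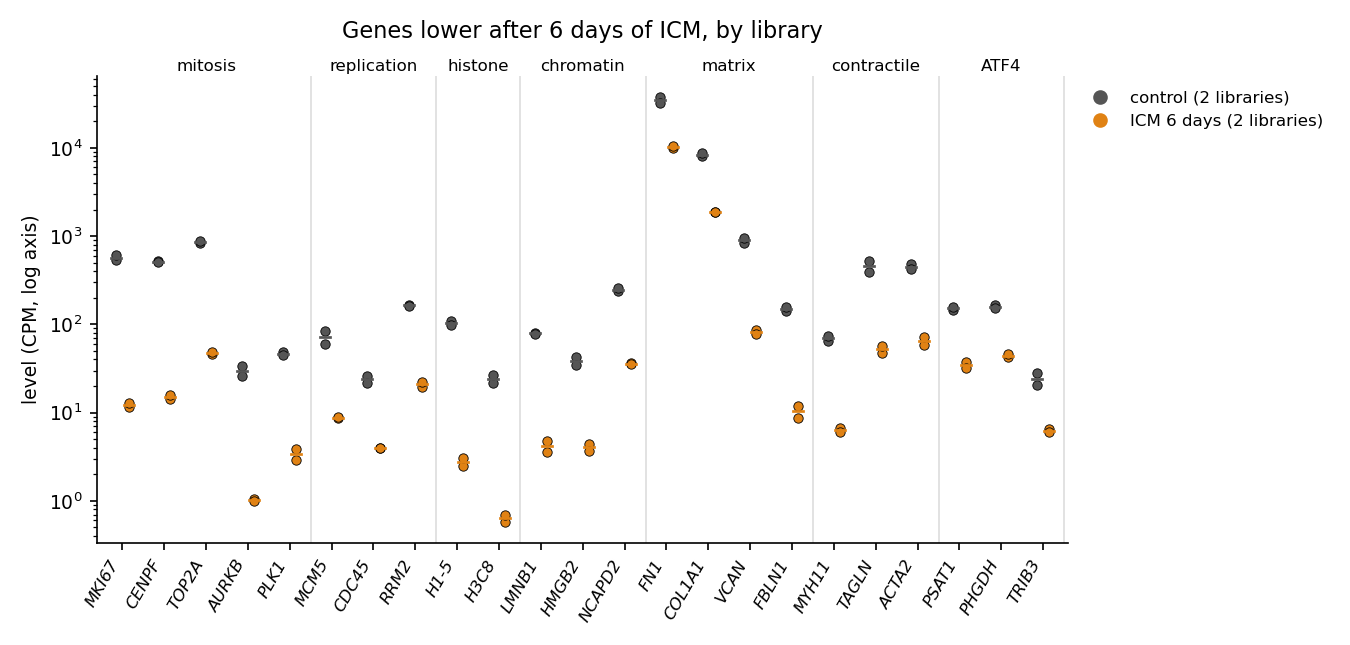
Points give the level of each of the 4 libraries (CPM, log axis) for 23 downregulated genes under 7 headings, control in grey and 6 days of ICM in orange, with a line at the mean of each pair. In each gene both 6-day libraries lie below both control libraries.

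HMGB2, a target of ICM and a chromatin protein lost early in senescence, went from 42.97 and 34.4 to 4.41 and 3.69 CPM (log2FC −3.26, SE 0.18, adjusted p = 4.55e-07 by edgeR's quasi-likelihood test), and its relative HMGB1 from 114 and 108 to 59.1 and 62.3 CPM (log2FC −0.87, SE 0.11). HMGA2 fell from 144 and 137 to 32.3 and 36.6 CPM (log2FC −2.03), while HMGA1 had 144 and 97.7 CPM in control and 113 and 127 CPM after 6 days, with overlapping groups. Altogether 4 of 10 high-mobility group genes fell, and HMGN3, a nucleosome-binding member, rose (log2FC 0.95).

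LMNB1, the gene for lamin B1, had 80.4 and 78.5 CPM in control and 3.61 and 4.79 CPM after 6 days (log2FC −4.24, SE 0.16, adjusted p = 5.55e-08 by edgeR's quasi-likelihood test). TMPO, which encodes lamin-binding LAP2 proteins, went from 120.3 and 138 to 24.4 and 25.8 CPM (log2FC −2.36). LMNA (lamins A and C) was not called, with 541 and 351 CPM in control and 565 and 642 CPM after 6 days (log2FC 0.44, SE 0.18). Of 10 lamin and nuclear envelope genes 5 fell and none rose, and without control replicate 1 the number that rose was 1.

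In a list of cohesin and condensin genes that also holds CTCF, 14 of 18 fell and none rose, with a median log2FC of −1.17. The condensin subunits fell furthest: NCAPH went from 33.7 and 33.4 to 1.75 and 1.32 CPM (log2FC −4.44), NCAPG from 103 and 99.1 to 8.23 and 8.903 CPM (log2FC −3.56) and SMC4 from 262 and 282 to 61.1 and 61.1 CPM (log2FC −2.15). The cohesin core had log2FC of −1.18 for SMC1A, −0.97 for SMC3 and −0.90 for RAD21. CTCF was called lower with a log2FC of −0.63, but not with library totals as the scaling. STAG1, STAG2, NIPBL and WAPL were not called, with log2FC between −0.32 (NIPBL) and 0.18 (STAG1). Among 17 genes of polycomb, heterochromatin and DNA methylation 10 fell and none rose. EZH2, which methylates H3K27, went from 40.4 and 43.8 to 8.18 and 6.53 CPM (log2FC −2.51), and UHRF1, which brings DNMT1 to replicated DNA, from 111 and 76.1 to 12.5 and 12.4 CPM (log2FC −2.91). DNMT1 fell from 266 and 254 to 92.1 and 96.4 CPM (log2FC −1.46). EZH1, the alternative H3K27 methyltransferase, had 34.3 and 36.2 CPM in control and 51.9 and 51.9 CPM after 6 days (log2FC 0.56, SE 0.12), which is below the cutoff.

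Targets of p53 were mostly upregulated, 18 of 28 with a median log2FC of 0.87, against 13.3% called higher among all genes. CDKN1A (p21, on chromosome 6) had 136 and 94.96 CPM in control and 792 and 787 CPM after 6 days (log2FC 2.77, SE 0.16), with 238 of its exon bases shared with DINOL on the opposite strand. MDM2, the ubiquitin ligase of p53, went from 279.6 and 229 to 785 and 848 CPM (log2FC 1.68, SE 0.13). Further members that rose were SPATA18, which acts in mitochondrial quality control (log2FC 1.99), FDXR, ferredoxin reductase (1.47), BAX, a pore-forming death effector (1.46), AEN, a nuclease (1.05), PHLDA3, an AKT inhibitor (1.07), and ZMAT3, an RNA-binding protein (0.99). BBC3, which encodes the death activator PUMA, was not called, with 4.58 and 3.72 CPM in control and 3.19 and 2.63 CPM after 6 days (log2FC −0.52, SE 0.25), and neither was GADD45A, a stress sensor, with 37.9 and 32.7 CPM in control and 38.8 and 45.8 CPM after 6 days. The member that fell was SESN2, a stress-induced antioxidant gene also under ATF4 control, with 54.8 and 53.9 CPM in control and 36.3 and 33.7 CPM after 6 days (log2FC −0.64). SESN2 was no longer called without 6-day replicate 2 or with library totals as the scaling, and without control replicate 2 the number of p53 targets that fell was 2. GDF15 depended on the control library, with 48.7 and 11.5 CPM in control and 107 and 112 CPM after 6 days, and its log2FC of 1.83 became 1.16 without control replicate 2 and 3.25 without control replicate 1, and DESeq2 did not call it.

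Among CDK inhibitors, G1 cyclins and their kinases 3 of 15 rose and 5 fell, against 13.3% and 17.2% over all genes. CDKN2C (p18) went from 9.29 and 8.59 to 1.59 and 1.21 CPM (log2FC −2.67) and CDKN1C (p57) from 4.94 and 3.06 to 0.956 and 1.21 CPM (log2FC −1.90). CDKN2A, which encodes p16 and ARF and is a common senescence marker, was weakly expressed, with 3.88 and 2.56 CPM in control and 4.51 and 3.48 CPM after 6 days (log2FC 0.28, SE 0.28, adjusted p = 0.44 by edgeR's quasi-likelihood test), and it was not called. CDKN2B was called higher with a log2FC of 0.61, but not at an adjusted p-value under 0.01. Its log2FC was 0.41 without control replicate 2. CCND3, a G1 cyclin, rose from 37.3 and 21.3 to 87.3 and 81.7 CPM (log2FC 1.51), while CCND1 had 458 and 372 CPM in control and 605 and 600.1 CPM after 6 days (log2FC 0.54) and was not called. The median of the 15 genes was −0.11 and became 0.23 without control replicate 1. In the BCL2 family the survival factor BCL2 fell from 4.64 and 3.14 to 1.11 and 0.948 CPM (log2FC −1.93), and the death activators BMF and BCL2L11 fell too (log2FC −1.59 and −1.41). MCL1 and BCL2L1, which also promote survival, were not called, with log2FC of −0.13 (SE 0.11) and 0.41 (SE 0.16).

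Genes under NRF2 were upregulated as a group, 27 of 28 with a median log2FC of 1.94. NFE2L2, the gene for NRF2, was not called and had 184 and 236 CPM in control and 247 and 219 CPM after 6 days (log2FC 0.15, SE 0.14, adjusted p = 0.387 by edgeR's quasi-likelihood test), with overlapping groups. HMOX1, heme oxygenase, lies on chromosome 22 from 35777089 to 35790200 and had 35.8 and 14.6 CPM in control and 419.8 and 422 CPM after 6 days (log2FC 4.04, SE 0.31, adjusted p = 3.66e-06 from the same test). The levels of NQO1, a quinone reductase, went from 287 and 246 to 1657 and 1658 CPM (log2FC 2.64, SE 0.13). OSGIN1, an oxidative stress response gene, rose from 22.6 and 11.9 to 251 and 289 CPM (log2FC 3.94).

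The arms of the NRF2 programme rose together. In glutathione synthesis GCLM, the modifier subunit of the limiting ligase, went from 68.95 and 71.5 to 489 and 531 CPM (log2FC 2.86), its catalytic partner GCLC from 67.4 and 72.5 to 298 and 256 CPM (log2FC 1.99), and the cystine importer SLC7A11 from 835 and 792 to 2214 and 2243 CPM (log2FC 1.45). In the thioredoxin system TXNRD1 went from 1381 and 1242 to 3667 and 3619 CPM (log2FC 1.47), TXN from 59.4 and 59.8 to 268 and 282 CPM (log2FC 2.21) and SRXN1 from 24.8 and 17.3 to 146 and 141 CPM (log2FC 2.76). NADPH is supplied by enzymes of the list such as PGD, TALDO1 and ME1, whose log2FC were 1.94, 1.57 and 1.58. The aldo-keto reductase AKR1B10 had 3.88 and 3.14 CPM in control and 96.1 and 109.6 CPM after 6 days (log2FC 4.85, SE 0.17) and AKR1C1 had 107 and 57.8 CPM in control and 1275 and 1329.5 CPM after 6 days (log2FC 3.97). AKR1C1, AKR1C2 and AKR1C3 are close paralogs, so how reads divide among them is uncertain. FTL and FTH1, the ferritin chains that store iron, had log2FC of 2.11 and 2.03 and also have processed pseudogenes. KEAP1, which targets NRF2 for degradation and is here part of the list, rose with a log2FC of 0.98.

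NRF2 binds antioxidant response elements (ARE), searched as TGACNNNGC on both strands in the same windows, and 13.6% of all 27195 promoters held these letters. Fewer than 80% of the NRF2 genes matched a promoter (20 of 28), so no share is read for them. The 3 promoters shown are of genes from the list that rose and hold a match, with the match in capitals, again over 150 bases of GRCh38.p14 up to the base before the start. GCLM lies at chr1:93909431-93909580 on the minus strand, ME1 at chr6:83431052-83431201 on the minus strand and TXNRD1 at chr12:104215629-104215778 on the plus strand.
GCLM: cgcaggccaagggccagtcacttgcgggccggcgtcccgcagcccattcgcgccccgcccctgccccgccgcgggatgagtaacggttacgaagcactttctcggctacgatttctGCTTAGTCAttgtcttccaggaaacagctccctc
ME1: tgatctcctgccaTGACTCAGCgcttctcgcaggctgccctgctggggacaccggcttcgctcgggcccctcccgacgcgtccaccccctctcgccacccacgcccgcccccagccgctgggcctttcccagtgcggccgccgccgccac
TXNRD1: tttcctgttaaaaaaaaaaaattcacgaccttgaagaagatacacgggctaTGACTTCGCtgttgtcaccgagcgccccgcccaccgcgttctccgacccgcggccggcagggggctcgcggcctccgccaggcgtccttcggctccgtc
The match begins 34 bases before the start in GCLM, 137 in ME1 and 99 in TXNRD1, and in GCLM it is on the other strand.

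Genes of tryptophan breakdown and of the aryl hydrocarbon receptor rose in 7 of 9 tested cases, with a median log2FC of 1.14. KYNU, kynureninase, had 24.7 and 16.5 CPM in control and 279 and 299 CPM after 6 days (log2FC 3.80, SE 0.18, adjusted p = 1.50e-07 by edgeR's quasi-likelihood test). TDO2, which opens the pathway, went from 0.118 and 0.413 to 2.71 and 3.85 CPM (log2FC 3.72). AFMID and KMO, also of the pathway, were called higher with log2FC of 0.70 and 1.03, but neither was called at an adjusted p-value under 0.01. Without control replicate 1 the log2FC of KMO was 0.56. The member that fell was HAAO, which acts near the end of the pathway (log2FC −1.57, SE 0.46), and it was not called without control replicate 1 or 6-day replicate 2, or by DESeq2. The receptor gene AHR went from 149.7 and 118 to 312 and 291 CPM (log2FC 1.17) and its target CYP1B1 from 74.1 and 64.99 to 279.9 and 252 CPM (log2FC 1.93). AHRR, the repressor that the receptor itself induces, was not called, with 95.2 and 85.9 CPM in control and 80.8 and 78.5 CPM after 6 days (log2FC −0.19, SE 0.11). The receptor's usual target CYP1A1 had at most 0.159 CPM in any library and was not tested.

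**Figure D4:**
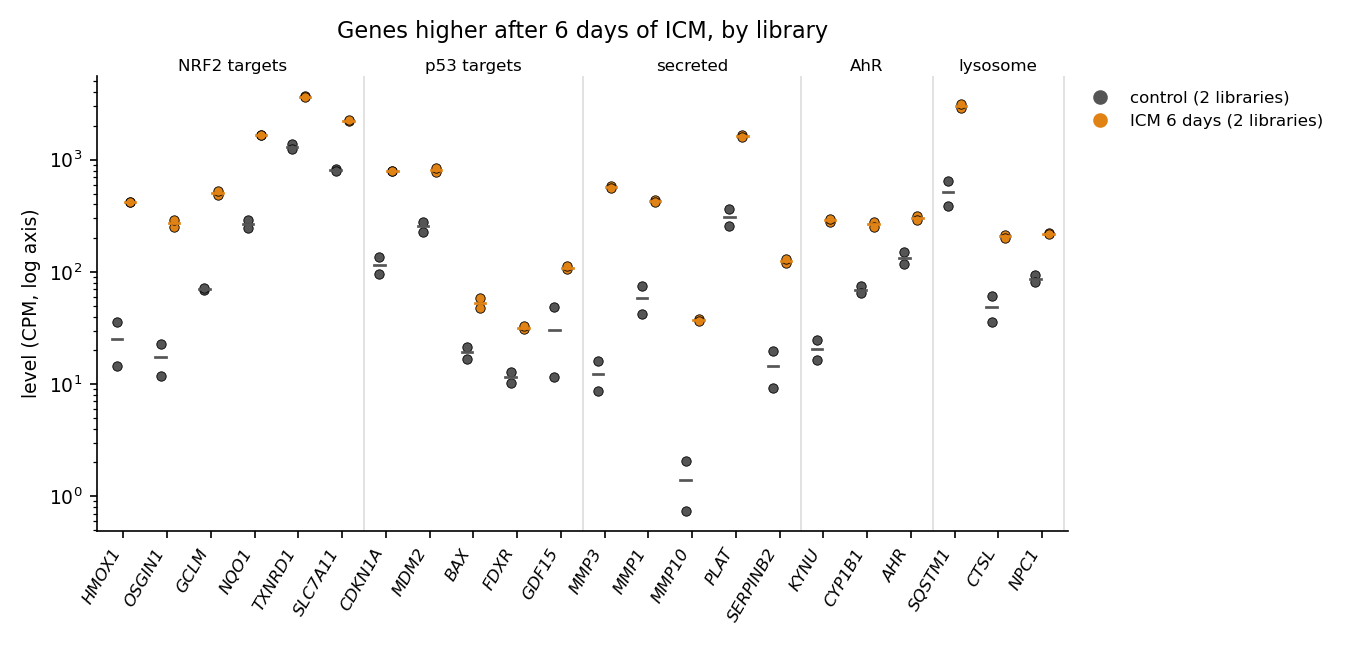
Points give the level of each of the 4 libraries (CPM, log axis) for 22 upregulated genes under 5 headings, control in grey and 6 days of ICM in orange, with a line at the mean of each pair. In each gene both 6-day libraries lie above both control libraries, and the control libraries lie furthest apart in GDF15.

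Lysosomal genes rose in 12 of 27 cases and none fell, with a median log2FC of 0.50 that was 0.77 without control replicate 1. Without either control library 1 member was called lower. SQSTM1, the autophagy receptor p62 and also an NRF2 target, had 642 and 384 CPM in control and 2894 and 3169 CPM after 6 days (log2FC 2.56, SE 0.21), with 715 of its exon bases shared with genes on the opposite strand. CTSL, the protease cathepsin L, went from 60.9 and 35.8 to 214 and 201 CPM (log2FC 2.09), ATP6V1A, a subunit of the proton pump, from 187 and 176 to 476 and 511 CPM (log2FC 1.44), and NPC1, which exports cholesterol, from 93.7 and 80.5 to 221 and 219 CPM (log2FC 1.33). GLB1, whose product is the β-galactosidase stained as a senescence marker, had 59.6 and 50.7 CPM in control and 75.01 and 76.7 CPM after 6 days (log2FC 0.46, SE 0.12, adjusted p = 0.013 by edgeR's quasi-likelihood test), which is below the fold cutoff. TFE3, a transcription factor of lysosomal genes, rose (log2FC 0.82), and TFEB was not called (−0.36, SE 0.37).

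Of 79 oxidative phosphorylation genes 13 rose and none fell, with a median log2FC of 0.35, and 71 had a log2FC above 0. The 13 of 79 are close to the 13.3% called higher among all genes. Without control replicate 1 the number called was 25. The largest was NDUFB4 of complex I, with 14.3 and 14.04 CPM in control and 27.4 and 27.9 CPM after 6 days (log2FC 0.96), followed by ATP5MC1 of the ATP synthase (log2FC 0.93). The 85 cytosolic ribosomal protein genes tested stayed close to level, with a median log2FC of 0.09 and 2 called lower, RPL39L and RPL22L1, which are paralogs of RPL39 and RPL22. The number of the 85 called higher was 0, and it was 4 without control replicate 1 and 2 with library totals as the scaling.

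Of 16 heat shock genes 3 rose and none fell, against 13.3% called higher and 17.2% called lower over all genes. HSPB8, a small chaperone of selective autophagy, went from 11.3 and 9.66 to 51.2 and 54.6 CPM (log2FC 2.33) and its partner BAG3 from 58.02 and 55.3 to 96.99 and 107 CPM (log2FC 0.85). HSPA1A, the classic inducible heat shock gene, was not called, with 27.6 and 20.6 CPM in control and 27.1 and 27.7 CPM after 6 days. Its near-identical copy HSPA1B was the third to be called higher, with 27.7 and 23.7 CPM in control and 37.4 and 41.5 CPM after 6 days (log2FC 0.61), and was not called without control replicate 2, without 6-day replicate 2 or with the libraries thinned to the smallest total. How reads divide between the copies is uncertain. Of 22 cholesterol genes 3 rose and 2 fell, against 13.3% and 17.2% over all genes, and without control replicate 1 the number that rose was 6 and the number that fell 1. DHCR7, the last enzyme of the pathway, had 46.2 and 32.3 CPM in control and 94.5 and 90.8 CPM after 6 days (log2FC 1.23). MT2A and MT1E were the 2 of 4 tested metallothionein genes that rose (log2FC 0.91 and 0.80).

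Several genes that ATF4 is known to control in amino acid supply fell. In the list of 24 genes of ATF4 and the unfolded protein response 12 fell and 2 rose, with a median log2FC of −0.59. Serine synthesis was lower, with PSAT1 going from 146 and 157 to 37.6 and 31.9 CPM (log2FC −2.12), PHGDH from 164 and 153 to 42.8 and 45.9 CPM (log2FC −1.84) and PSPH from 31.3 and 30.8 to 13.5 and 12.1 CPM (log2FC −1.28). TRIB3, a pseudokinase, went from 27.9 and 20.6 to 6.48 and 6.06 CPM (log2FC −1.96), and SLC7A5, which imports large neutral amino acids, from 219 and 148 to 59.1 and 54.4 CPM (log2FC −1.69). ATF4 itself had 162 and 128 CPM in control and 116 and 122 CPM after 6 days (log2FC −0.28, SE 0.13) and DDIT3 (CHOP) had 18.8 and 17.7 CPM in control and 15.9 and 14.6 CPM after 6 days (log2FC −0.26, SE 0.15), and neither was called. HSPA5, the main chaperone of the endoplasmic reticulum, had 577 and 646 CPM in control and 626 and 653 CPM after 6 days, with overlapping groups. The 2 that rose were ATF3, a stress transcription factor, from 11.6 and 8.84 to 45.4 and 48.2 CPM (log2FC 2.18), and DNAJB9, a co-chaperone, from 9.99 and 9.66 to 28.6 and 28.03 CPM (log2FC 1.52). Without control replicate 1 the number that rose was 4.

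Cytokines and chemokines of the SASP were weakly expressed, and more fell than rose. Of 16 tested, 1 rose and 6 fell, against 13.3% and 17.2% over all genes, with a median log2FC of −0.54. This count rested on single control libraries: without control replicate 1 it was 5 higher and the median 0.22, and without control replicate 2 it was 11 lower and the median −1.08. Without 6-day replicate 2 the number lower was 3. IL1A, an upstream SASP cytokine, went from 3.703 and 4.46 to 0.902 and 0.527 CPM (log2FC −2.49, SE 0.34). IL32 had 62 counts in the control libraries together and none after 6 days, at least 26.8-fold lower. IL6 had 7.17 and 4.54 CPM in control and 3.24 and 3.06 CPM after 6 days, and its log2FC of −0.92 was −0.53 if control replicate 1 was left out and −1.19 if control replicate 2 was, and it was not called without control replicate 1 or either 6-day library. CXCL8, the neutrophil chemokine IL-8, had 22.9 and 2.39 CPM in control and 21.8 and 23.9 CPM after 6 days, so that control replicate 1 was near the 6-day level and control replicate 2 far below it, and no difference was called (log2FC 0.79, SE 0.57). CXCL3, the 1 member called higher, had 2.82 and 0.413 CPM in control and 5.999 and 5.005 CPM after 6 days, with a log2FC of 3.71 without control replicate 1 and 0.96 without control replicate 2, and DESeq2 did not call it.

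Of 17 NF-κB subunit, regulator and feedback genes 7 fell, none rose and 10 were not called, against 17.2% called lower and 13.3% called higher over all genes. ICAM1, an adhesion molecule, went from 41.6 and 36.2 to 3.66 and 4.95 CPM (log2FC −3.17, SE 0.18, adjusted p = 5.47e-07 by edgeR's quasi-likelihood test), TNFAIP3, which ends NF-κB signalling, from 34.4 and 16.4 to 3.82 and 2.42 CPM (log2FC −3.04), and BIRC3, an apoptosis inhibitor, from 7.29 and 4.79 to 0.637 and 0.632 CPM (log2FC −3.25). RELB, a subunit of the noncanonical branch, fell with a log2FC of −1.56, whereas RELA, the main canonical subunit, was not called (0.25, SE 0.14). NFKB1, REL and NFKBIA were called lower with log2FC of −0.61, −0.61 and −0.81, but these calls were not firm. At an adjusted p-value under 0.01 REL and NFKBIA were not called, and with library totals as the scaling NFKB1 and REL were not. Without control replicate 1 the log2FC of NFKBIA was −0.25 and that of NFKB1 −0.49. The list's median was −0.33 and was −0.05 without control replicate 1, where 1 member was called higher.

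Of 25 interferon response and antigen presentation genes 5 rose and 4 fell, against 13.3% and 17.2% over all genes, so the share that fell was near the background. IFI44L rose from 0.647 and 0.991 to 11.998 and 11.2 CPM (log2FC 3.85, SE 0.27). OAS3, a sensor of double-stranded RNA, fell from 20.8 and 21.6 to 3.24 and 2.05 CPM (adjusted p = 2.51e-06 by edgeR's quasi-likelihood test). IFIT1, MX1 and ISG15, commonly read as markers of the response, were not called, with log2FC of −0.02, −0.16 and 0.54. HLA-B and B2M, which present antigens, fell with log2FC of −0.96 and −0.75. Without 6-day replicate 1 or 2 the number higher was 3, and without control replicate 2 the number lower was 7.

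Proteases, inhibitors and growth factors of the SASP split, with 12 of 29 higher, 7 lower and a median log2FC of 0.26. Besides MMP3 and MMP10, the collagenase MMP1 went from 74.4 and 42.1 to 434 and 424 CPM (log2FC 2.87, SE 0.22). SERPINB2, an inhibitor of plasminogen activators, went from 19.6 and 9.25 to 121 and 131 CPM (log2FC 3.10), and PLAT, the tissue plasminogen activator, from 363 and 259 to 1672 and 1605 CPM (log2FC 2.40). STC2, a secreted glycoprotein, rose from 239.7 and 223 to 489.8 and 496 CPM (log2FC 1.09). In the other direction PTX3, a pattern recognition protein, went from 129 and 86.8 to 17.6 and 17.6 CPM (log2FC −2.62), TIMP3, a matrix-bound metalloproteinase inhibitor, from 405 and 408 to 127 and 119 CPM (log2FC −1.73), and MMP2, gelatinase A, from 397 and 473 to 248 and 209.7 CPM (log2FC −0.93). PLAU, TIMP1 and IGFBP3 were not called, with log2FC of −0.09, 0.10 and 0.03. STC1, a secreted hormone, had 62.01 and 19.8 CPM in control and 171 and 149 CPM after 6 days, and its log2FC of 1.95 became 3.01 without control replicate 1 and 1.37 without control replicate 2.

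Of 36 listed extracellular matrix genes 27 fell and none rose, with a median log2FC of −1.23. The list does not hold every matrix gene. NID2, the basement membrane linker named above, was not in it and rose (log2FC 1.99). COL1A1, the main fibrillar collagen chain, lies on chromosome 17 from 48261457 to 48279000 and had 7988 and 8782 CPM in control and 1867 and 1859 CPM after 6 days (log2FC −2.17, SE 0.13, adjusted p = 6.17e-07 by edgeR's quasi-likelihood test). Its partner COL1A2 fell by less, from 7205 and 6509 to 3738 and 3534 CPM (log2FC −0.92). COL3A1 was not called, with 3159.5 and 2985 CPM in control and 2977 and 2843 CPM after 6 days (log2FC −0.08, SE 0.12), and neither was COL12A1, with 9248 and 9119 CPM in control and 12667 and 12036 CPM after 6 days (log2FC 0.43). COL6A3 went from 17023 and 15918 to 4944 and 4956 CPM (log2FC −1.73) and COL15A1, of basement membrane zones, from 353 and 349 to 40.5 and 37.5 CPM (log2FC −3.17). VCAN, a large proteoglycan, went from 835 and 962 to 85.3 and 76.8 CPM (log2FC −3.47), FBLN1, a matrix glycoprotein, from 141 and 157 to 11.9 and 8.798 CPM (log2FC −3.85), and ELN (elastin) from 8.46 and 3.72 to 0.265 and 0.369 CPM (log2FC −4.26). HAS2, the hyaluronan synthase, went from 58.02 and 37.8 to 5.73 and 7.01 CPM (log2FC −2.92). TNC (tenascin-C) and THBS1 (thrombospondin-1) fell with log2FC of −2.03 and −0.79. The crosslinking enzymes divided, as LOXL1 fell (log2FC −1.17) while LOX and LOXL2 were not called (0.40 and 0.02).

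Contractile and smooth muscle genes, which mark myofibroblasts, fell in 13 of 16 cases with a median log2FC of −1.40. ACTA2, smooth muscle actin, went from 481 and 419 to 58.1 and 71.6 CPM (log2FC −2.79, SE 0.14), TAGLN, an actin-binding protein, from 522 and 391 to 47.6 and 56.5 CPM (log2FC −3.13), and MYH11, smooth muscle myosin, from 64.9 and 73.4 to 6.69 and 6.11 CPM (log2FC −3.43). Their regulators SRF and MYOCD (myocardin) fell too, with log2FC of −1.07 and −1.32, and MRTFA, a coactivator of SRF, was not called (0.12, SE 0.13). Of 15 YAP and TEAD genes 7 fell and 1 rose. ANKRD1, a common YAP target, fell from 14.9 and 10.1 to 2.12 and 1.26 CPM (log2FC −2.89), whereas CCN2, another such target, had 927 and 1246 CPM in control and 1078 and 1177 CPM after 6 days, with overlapping groups. The member that rose was F3, the tissue factor that starts coagulation, from 866 and 913 to 1961 and 1992 CPM (log2FC 1.15). YAP1 itself was not called (log2FC −0.28, SE 0.11).

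In the TGF-β and BMP list 5 of 23 rose and 8 fell. Over all genes 13.3% rose and 17.2% fell, which is also the background for the WNT and Notch lists. BMP2 rose from 22.2 and 14.2 to 131 and 126 CPM (log2FC 2.80, SE 0.18), BMP6 from 8.76 and 9.001 to 20.5 and 17.8 CPM (log2FC 1.11) and their target ID1 from 8.6997 and 4.54 to 15.8 and 16.02 CPM (log2FC 1.23), whereas BMP4 fell from 29.8 and 40.3 to 11.4 and 10.6 CPM (log2FC −1.67) and TGFB3 from 4.94 and 6.77 to 1.75 and 1.48 CPM (log2FC −1.84). Without 6-day replicate 1 the number that rose was 3, and without control replicate 1 the number that fell was 5. Of 16 WNT pathway genes 3 rose and 5 fell, and without 6-day replicate 2 the number that fell was 3. WNT2, a ligand of lung mesenchyme, fell from 10.1 and 11.9 to 0.531 and 0.843 CPM (log2FC −3.98), the antagonist SFRP1 from 93.5 and 78.9 to 36.9 and 33.3 CPM (log2FC −1.30), and WNT16, a ligand, rose from 4.23 and 2.81 to 10.3 and 8.17 CPM (log2FC 1.36). In the Notch pathway 4 of 9 fell, with the receptor gene NOTCH1 going from 110.2 and 81.3 to 28.8 and 30.4 CPM (log2FC −1.70) and the glycosyltransferase LFNG from 3.94 and 1.82 to 0.212 and 0.369 CPM (log2FC −3.31). The list's median was −0.38 and was −0.75 without 6-day replicate 2, −0.72 without control replicate 2 and −0.62 without 6-day replicate 1.

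Among 12 transcription factors of lung mesenchyme 2 rose and 6 fell, against 13.3% and 17.2% over all genes. TCF21 rose from 50.3 and 46.7 to 134 and 127 CPM (log2FC 1.43, SE 0.11), while GLI3 and GLI2, which carry hedgehog signals, fell from 20.3 and 33.2 to 8.07 and 7.85 CPM (log2FC −1.74) and from 54.1 and 68.8 to 25.6 and 24.9 CPM (log2FC −1.28). Without control replicate 2 the number that rose was 1, and without 6-day replicate 2 the number that fell was 3. FOXF1 and TBX5 were not called (log2FC 0.41 and 0.34).

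Of 25 immediate early and MAPK feedback genes 8 rose and 6 fell. Over all genes 13.3% rose and 17.2% fell, which is also the background for the circadian clock genes below. JUN rose from 129 and 113 to 224 and 272 CPM (log2FC 1.04, SE 0.13) and NR4A2, a nuclear receptor, from 14.5 and 7.27 to 44.3 and 28.9 CPM (log2FC 1.72), and the MAPK phosphatases DUSP4 and DUSP5 rose with log2FC of 1.39 and 0.85. Some of the rises were not firm. DUSP1 and DUSP6 were called higher with log2FC of 0.66 and 0.74, which were 0.55 and 0.54 without control replicate 2. NR4A3 was called higher (log2FC 0.98), but not at an adjusted p-value under 0.01. EGR3 fell from 5.47 and 11.7 to 0.637 and 0.421 CPM (log2FC −3.98). EGR2 had 49 counts in the control libraries together and 3 after 6 days, a 21.2-fold lower level with a 95% interval of 6.84 to 106 for counting error. FOS and MYC were not called (log2FC −0.15 and −0.55). Of 16 circadian clock genes 4 fell, the repressors PER2 (log2FC −2.11), PER3 (−2.27) and NR1D1 (−1.17) and the activator TEF (−1.39), and CLOCK was not called (−0.14, SE 0.13). The 2 clock genes that rose were RORA and BHLHE40, neither of which was called without 6-day replicate 1, and without control replicate 1 or 2 only 1 of them was called.

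Noncoding genes also changed. LYPLAL1-DT rose from 0.705 and 0.826 to 18.2 and 18.5 CPM (log2FC 4.59, SE 0.24), MIR210HG, the host gene of a hypoxia-induced miRNA, from 3.29 and 3.47 to 20.9 and 21.9 CPM (log2FC 2.66), and LINC00968 from 3.23 and 4.87 to 21.98 and 19.97 CPM (log2FC 2.40). LINC00473 fell from 7.7004 and 6.36 to 0.531 and 0.369 CPM (log2FC −3.95), STARD4-AS1 from 49.1 and 65.2 to 6.42 and 4.58 CPM (log2FC −3.37) and THSD4-AS1 from 8.6997 and 10.2 to 1.06 and 0.948 CPM (log2FC −3.22). LINC00473 shares 489 and STARD4-AS1 314 exon bases with genes on the opposite strand. Of 1390 lncRNA genes tested 11.2% rose and 21.8% fell, against 14.1% and 16.7% of 13314 protein-coding genes.

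Calls also differed by the genomic length of genes, given as a description since genes are not replicates. Of 4330 genes spanning under 10 kb 14.7% rose and 15.1% fell, and of 339 genes over 400 kb 12.1% rose and 25.7% fell. The medians of the 2 classes were 0.04 and −0.20. The X chromosome had the highest share of upregulated genes among the autosomes and X, 18.7% of 498, with 13.1% lower.

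**Figure D5:**
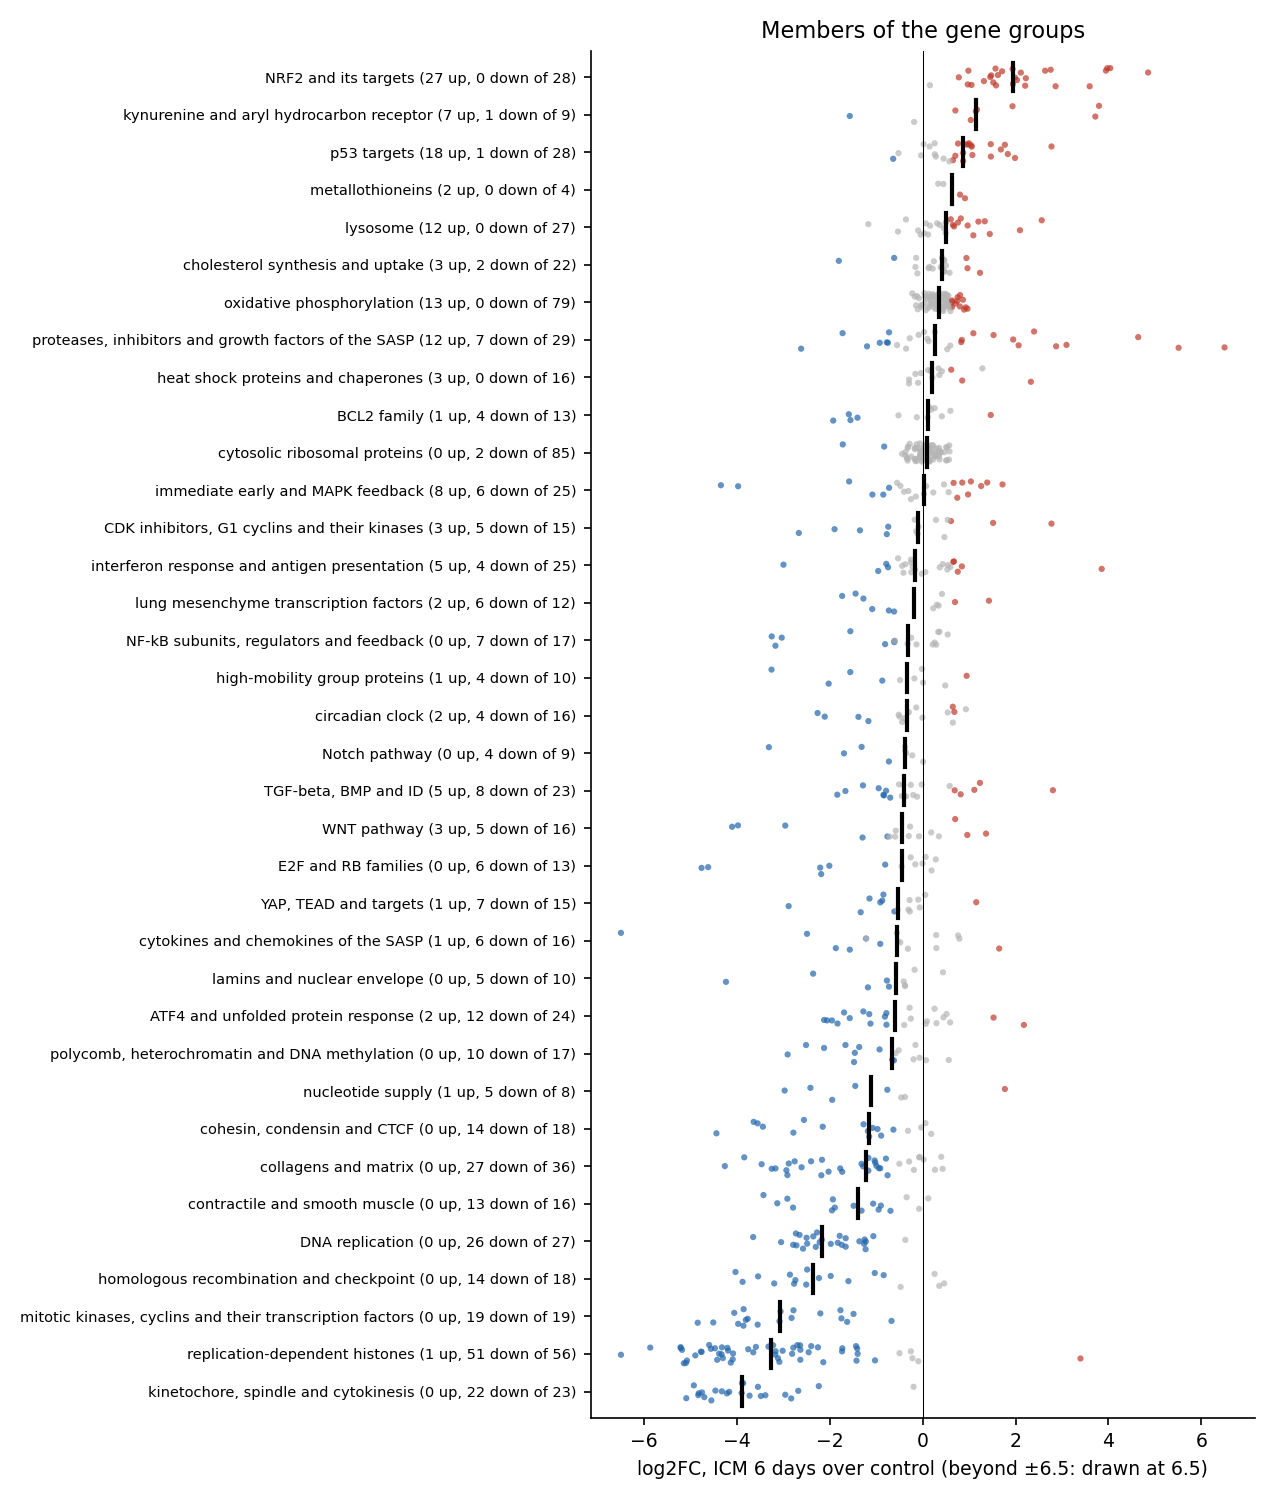
Each point is 1 tested gene at its log2FC after 6 days of ICM against control, in red if upregulated, blue if downregulated and grey if not called, with 1 line per gene group and a black bar at the group's median. The NRF2 group is at the top (median 1.94) and the kinetochore and spindle group at the bottom (median −3.90).

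The labelled cell type was checked against defining markers. Of 12 fibroblast markers 11 were tested, 7 fell and none rose, with summed levels of 23296 and 23350.0 CPM in control and 11301 and 10965 CPM after 6 days. PDGFRA and PDGFRB, the receptors for platelet-derived growth factor, had log2FC of −1.27 and −1.39, while VIM (vimentin) had 1863 and 1772 CPM in control and 1196 and 1320.0 CPM after 6 days (log2FC −0.53) and was below the cutoff. Epithelial markers summed to 103 and 68.4 CPM in control and to 37.9 and 35.8 CPM after 6 days, nearly all from the keratin genes KRT8 and KRT18. EPCAM, CDH1, SFTPC and NKX2-1, which define lung epithelium, stayed at or under 0.425 CPM in every library. Endothelial markers summed to between 165 and 197 CPM, nearly all from TEK, and the defining genes PECAM1, CDH5 and ERG were at or under 0.0826 CPM. Blood cell markers summed to 8.46 and 8.01 CPM in control and to 24.0 and 19.9 CPM after 6 days, with a rise in CD68, a lysosomal glycoprotein, from 5.29 and 4.21 to 18.95 and 16.9 CPM (log2FC 1.90) and no count for CD3E in any library. Their part in the results was not tested. Without control replicate 1 another blood cell marker was called higher, and VWF, the endothelial marker that was called higher (log2FC 0.88), was not called without 6-day replicate 1 or 2, or by DESeq2.

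The 6-day libraries were also tested against those of 3 days of ICM, a comparison that has the 6-day libraries in common with the one described so far but no control library. Of 15845 genes 559 were higher and 719 lower after 6 days, 3.53% and 4.54% and 8.07% together. Of 35 matrix genes tested in it 12 were lower and 2 higher, with COL1A1 at a log2FC of −0.94 (adjusted p = 2.66e-07 by edgeR's quasi-likelihood test), TNC at −0.87 and VCAN at −2.61. Of 51 histone genes 13 were lower and 3 higher, and of 21 kinetochore and spindle genes 4 were lower. Circadian clock genes were lower in 9 of 16 cases, with PER2 at −2.26 and NR1D1 at −1.63. SASP proteases and growth factors were higher in 7 of 29 cases, with SPP1 at 1.20, PLAT at 1.94 and SERPINB2 at 1.13, and lower in 3, with MMP1 at −1.04 and MMP10 at −0.78. SASP cytokines were higher in 4 of 13 cases, with CXCL8 at 1.61 and CCL2 at 1.95. Of 28 NRF2 genes GCLM alone was called, at 0.62, and of 28 p53 targets 2 were lower, TP53I3 at −0.69 and BBC3 at −0.84. Among the genes with the largest changes against control that are named here, CARMN was the furthest below its 3-day level (log2FC −3.31) and FER1L6 the furthest above (log2FC 2.56).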

How the data were processed

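Factory RNA-Seq libraries of IMR90 cells were compared, 2 of cells labelled young (control) and 2 of cells after 6 days of ICM, with 2 of 3 days of ICM for a further comparison. Per the labels, total RNA was extracted with Trizol and went through poly(A) selection and TruSeq library preparation. The authors aligned the reads to hg19 (GRCh37) with STAR (version 2.6.0c per the submitters' processing notes) and deposited, for each library, raw exonic counts of read pairs per RefSeq gene, made with featureCounts (version 1.6.3 per the file headers). Per those headers, pairs were counted without regard to strand, and multi-mapped reads or reads overlapping more than 1 gene were left out. No normalization was applied to the deposited counts. Gene spans and exon overlaps came from the same tables. Intronic counts, from which the study took its nascent RNA values, were not analysed here. The MetaICM libraries entered only the fit of all 8 libraries.

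Genes that passed filterByExpr (count minimum 10) were tested in the 4 libraries of a comparison with edgeR (version 4.0.16, R 4.3.3, limma 3.58.1), TMM normalization and the quasi-likelihood test, with p-values adjusted by Benjamini-Hochberg. A change was called with an absolute log2FC over 0.6 at an adjusted p-value under 0.05. SE stands for an approximate standard error of log2FC, computed as the absolute log2FC divided by the square root of the quasi-likelihood F statistic. The libraries held between 12095123 and 18898154 counts. On data simulated for 6 days against control, 97% of 100 genes changed 2-fold and 100% of 100 changed 4-fold were called among 15682 genes, and 14 unchanged genes were called. In the comparison with 3 days the shares were 98% and 100% among 15615 genes, and 4 unchanged genes were called. The changed genes were drawn from those with a mean over 5 CPM, so these shares do not cover genes below that level. A smaller part of the genes was changed in the simulation than the 30.5% called in the data for 6 days against control. Where a group had no count, the fold is a lower bound that takes 3 counts for that group, and where it had 1 to 3 counts, the fold has a 95% exact binomial interval. Both cover counting error only.

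Genes were described in 40 lists written from general knowledge. The 668 entries given as gene symbols were all found in the tables, 2 of them under an older symbol. Further members were taken from the tables by name pattern. Outside the lists, genes were named among those called whose groups did not overlap: in each direction the 12 with the largest absolute log2FC and at least 20 CPM in the higher group, the 8 with the largest difference in mean CPM, and the 3 noncoding genes with the largest absolute log2FC and at least 5 CPM. Members and lists were chosen with earlier results of these data known. XIST, Y-linked genes and some members of the lists are not reported here by name. Promoters (250 bases before to 50 after the start) came from RefSeq's table for GRCh38.p14, which differs from the build of the counts, and were matched by symbol.

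Alternatives were an adjusted p-value under 0.01, DESeq2 (version 1.42.0), 3 other scalings, 2 other filters, all 8 libraries in a fit, the replicate number as a block, leaving out each library in turn, and libraries thinned to 12095123 counts. With a library left out, the lone library of its group was assumed to vary like the pair of the other group. The RUVs step of the study's methods was not used here. Tables and figures were made in Python 3.11.15 with matplotlib 3.10.9, scipy 1.17.1, pandas 2.3.3 and numpy 2.4.6.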

Additional observations from a re-analysis of the deposited data

How the results depend on the processing

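The counts of upregulated and downregulated genes after 6 days against control stayed within 1.5 times of 2121 and 2738 under all alternatives run. They were 1832 and 2352 with DESeq2, 1664 and 2155 at an adjusted p-value under 0.01, 2385 and 2575 with library totals as the scaling, where 48.1% of calls were higher against 43.7%, and 1980 and 2611 with the libraries thinned to the smallest total. With each library left out in turn the number upregulated lay between 1674 and 2449 and the number downregulated between 2137 and 2804. With the replicate number as a block they were 2249 and 2867, and the block ended no call among the 465 called genes that are named or listed. The labels share only a number between groups, and the deviations of same-numbered control and 6-day libraries from their group means correlated at 0.0758, so no pairing was assumed. Against 3 days, the counts were 621 higher and 829 lower with the replicate block and between 449 and 666 and between 534 and 867 with a library left out. Of the 465 calls, 451 held with DESeq2, 440 at the stricter p-value and 430 to 441 with a library left out, and none turned direction. Among genes that were not called, the log2FC of CXCL5 was −1.22 and lay between −2.07 and 6.23 with a library left out, the latter without control replicate 1, as the other control library had no count, and the cause was not tested further. Depth limits weakly expressed genes, many of the cytokine genes among them. With 2 libraries per group no test for an outlying library was possible.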
